A study of Mus musculus with 18 samples.

Results

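Cd63, Cd9, Cd81, Cd37, Cd53, Cd82 and Cd151 are 7 members of the tetraspanin family found on leukocytes. They were measured in monocytes and neutrophils sorted from mouse bone marrow, with and without conditional deletion of Zeb2. The 7 genes were chosen by name, with earlier results of these arrays known, among them the change of Cd63 and the low level of Cd9 in control monocytes. Only probe sets that name a single gene were used, and a gene with several was to be read from its brightest. Each of the 7 genes had 1 such probe set, so brightness chose nothing among them. They are 7 of 19938 genes with such a probe set, and all 7 were among the 13387 genes tested, reading above the 40th percentile of the array on all 18 arrays. The tests below therefore describe these arrays and are not independent evidence that this family stands apart.

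All mice were of the C57BL/6 background and carried loxP-flanked Zeb2 alleles, Zeb2(fl/fl). The mice labelled Zeb2-deficient also carried Mx1-Cre. Its interferon-responsive promoter drives the recombinase in blood-forming cells and in other tissues that respond to interferon. Their controls had no Cre, so an effect of Cre and an effect of Zeb2 loss cannot be told apart. Both genotypes were given poly(I:C), a double-stranded RNA that induces interferon, in 2 doses of 150 µg spaced over at most 48 h, and marrow was harvested after 3 weeks. In each cell type, Ly-6C(hi) monocytes and neutrophils, there were 4 arrays labelled Zeb2-deficient, 4 poly(I:C) control arrays and 1 array of an untreated control. Values are log2 intensities, in which 1 unit is a 2-fold difference, and the number of arrays limits their precision. Nothing in the labels says that the arrays of a group are separate animals. The p-values therefore measure only how these samples spread, and that spread may be technical.

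Tetraspanins are small proteins that cross the membrane 4 times and gather integrins, receptors and enzymes into membrane patches. Several also cycle through endosomes, and CD63 marks lysosomes, the primary granules of neutrophils and released vesicles. In bone marrow the family spans genes carried by nearly all leukocytes, such as Cd53, and genes whose level differs between lineages.

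Zeb2 itself read 8.74 to 9.84 in monocytes labelled deficient, against 9.86 to 10.08 in control monocytes, and 7.10 to 8.25 in neutrophils labelled deficient, against 6.86 to 7.54 in control neutrophils. The neutrophil values went against the label, and neither change passed (adjusted p = 0.272 in monocytes and 0.972 in neutrophils, limma). The probe set summarises the whole transcript and does not check the deleted part, so directions are given for samples labelled Zeb2-deficient.

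In monocytes labelled Zeb2-deficient, Cd63, Cd9, Cd81, Cd37 and Cd82 rose and Cd53 and Cd151 did not pass the test, while in neutrophils none of the 7 passed. Promoters of members are shown first, because Zeb factors bind the E-box CAGGTG, whose other strand reads CACCTG. Both spellings were searched in the 250 bases before each start listed by RefSeq (GRCm38.p6). Of all 32544 such windows, 17.3% hold at least 1 of them. The windows of Cd9 (chr6:125494761-125495010, minus strand) and Cd81 (chr7:143052500-143052749, plus strand), the members with the largest changes among those whose arrays did not overlap, read as follows, with a match in capitals.
Cd9: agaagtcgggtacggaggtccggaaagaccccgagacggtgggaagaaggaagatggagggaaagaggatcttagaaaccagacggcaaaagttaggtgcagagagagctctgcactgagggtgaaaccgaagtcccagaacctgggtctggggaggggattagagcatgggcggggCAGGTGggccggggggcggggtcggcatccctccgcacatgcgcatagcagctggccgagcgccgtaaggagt
Cd81: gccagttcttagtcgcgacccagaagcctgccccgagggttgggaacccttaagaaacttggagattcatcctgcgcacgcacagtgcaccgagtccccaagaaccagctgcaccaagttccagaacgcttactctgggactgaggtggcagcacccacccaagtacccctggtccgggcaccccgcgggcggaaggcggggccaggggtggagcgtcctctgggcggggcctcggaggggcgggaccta
The match of Cd9 begins 73 bases before the start, and the window of Cd81 holds none. Cd37 has a match beginning 175 bases before its listed start, which lies 501 bases inside the gene from its outermost annotated start. Cd82 has 4 listed starts, and its outermost one has no match. The 2 with a match, beginning 179 and 236 bases before, lie 1099 and 10278 bases inside. The 1 start listed for Cd63, which lies 13114 bases inside the gene from its outermost annotated start, has none. Of the members that did not rise, Cd151 has a match beginning 186 bases before its outermost start, and Cd53 has none. So matches are found both among members that rose and among those that did not. The match of Cd151 is not printed, so the matches shown are all of members that rose. The 30 bases around those of Cd37 and Cd82 (minus strand, chr7:45238997-45239026, chr2:93462013-93462042 and chr2:93452891-93452920) read as follows.
Cd37: ctgagctatggaCACCTGcgaggaacccat
Cd82, nearer match: tgtgagggctaaCAGGTGacagtcacagtg
Cd82, farther match: agtgaaatcctcCAGGTGgcttttgggcct
A match is a description of the letters and says nothing of binding in these cells.

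Cd63 showed the largest rise of the 7. Monocytes labelled deficient read 10.14, 9.29, 11.03 and 11.24, against 5.70, 5.45, 9.46 and 8.48 in control monocytes. The control arrays formed a low pair and a high pair, and the highest control array lay above the lowest deficient one, so the groups overlapped. The means were 10.43 ± 0.90 and 7.27 ± 2.00 (SD, n = 4 each), a difference of 3.15 ± 0.65 (SE) or 8.90-fold with limma adjusted p = 0.00482. When only the monocyte arrays of these groups were fitted, adjusted p was 0.0610. In sorted bulk samples, more cells that carry a transcript and more transcript per cell cannot be told apart.

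Cd81, a tetraspanin carried by many cell types, rose next. It read 8.39, 7.51, 8.62 and 9.08 in monocytes labelled deficient, against 5.49, 5.80, 6.47 and 5.66 in control monocytes. Every deficient array lay above every control array. The difference was 2.54 ± 0.32 (SE), or 5.82-fold, with limma adjusted p = 5.83e-05.

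Cd9, which associates with integrins and is abundant on platelets, read 7.30, 6.44, 7.38 and 7.97 in monocytes labelled deficient, against 5.12, 5.61, 5.99 and 4.56 in control monocytes. The groups did not overlap. It rose by 1.95 ± 0.29 (SE), or 3.86-fold, with limma adjusted p = 2.52e-04. Of the platelet and megakaryocyte markers, 6 were tested and 0 passed in monocytes by limma, where 7.54% of all genes tested passed. Their mean level per array ran from 4.81 to 5.45 in monocytes labelled deficient and from 4.55 to 5.70 in control monocytes. Their part in the level of Cd9 was not tested.

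Cd37 and Cd82 rose by less. Cd37, a leukocyte tetraspanin that associates with the fungal receptor Dectin-1, read 9.07, 8.39, 8.51 and 8.23 in monocytes labelled deficient, against 7.81, 8.10, 7.54 and 7.43 in control monocytes. The groups did not overlap, and the difference was 0.83 ± 0.22 (SE), 1.78-fold (limma adjusted p = 0.0275). Leaving out 1 array lost this call in 5 of 8 cases. Adjusted p was 0.0930 without deficient replicate 1, 0.0645 without deficient replicate 3, and 0.0519, 0.0798 and 0.0911 without control replicates 1, 4 and 5. Cd82, described as a metastasis suppressor in human tumours, read 7.50, 6.98, 6.88 and 7.20 in monocytes labelled deficient, against 6.43, 6.59, 6.33 and 6.37 in control monocytes. These groups did not overlap either, and the difference was 0.71 ± 0.16 (SE), 1.64-fold (limma adjusted p = 0.0105).

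Cd53 and Cd151 did not pass in monocytes. Cd53, carried by nearly all leukocytes, read 10.58 to 11.52 in monocytes labelled deficient and 11.19 to 11.58 in control monocytes. Its difference was -0.23 (95% interval -0.58 to 0.12, limma adjusted p = 0.508). Cd151, which binds laminin-binding integrins, read 4.83 to 5.60 and 5.24 to 5.73 in the same 2 groups. Its difference was -0.37 (95% interval -0.71 to -0.031, limma adjusted p = 0.199), and without deficient replicate 2 it was -0.53 with adjusted p = 0.0181.

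In all, 5 of the 7 members passed, all of them higher, where 7.54% of all genes tested passed and 5.11% were higher. Arrays did not overlap for 4 of 7, where 10.0% of all genes did not. The members were chosen with such changes in view, so these shares are a description.

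**Figure D1:**
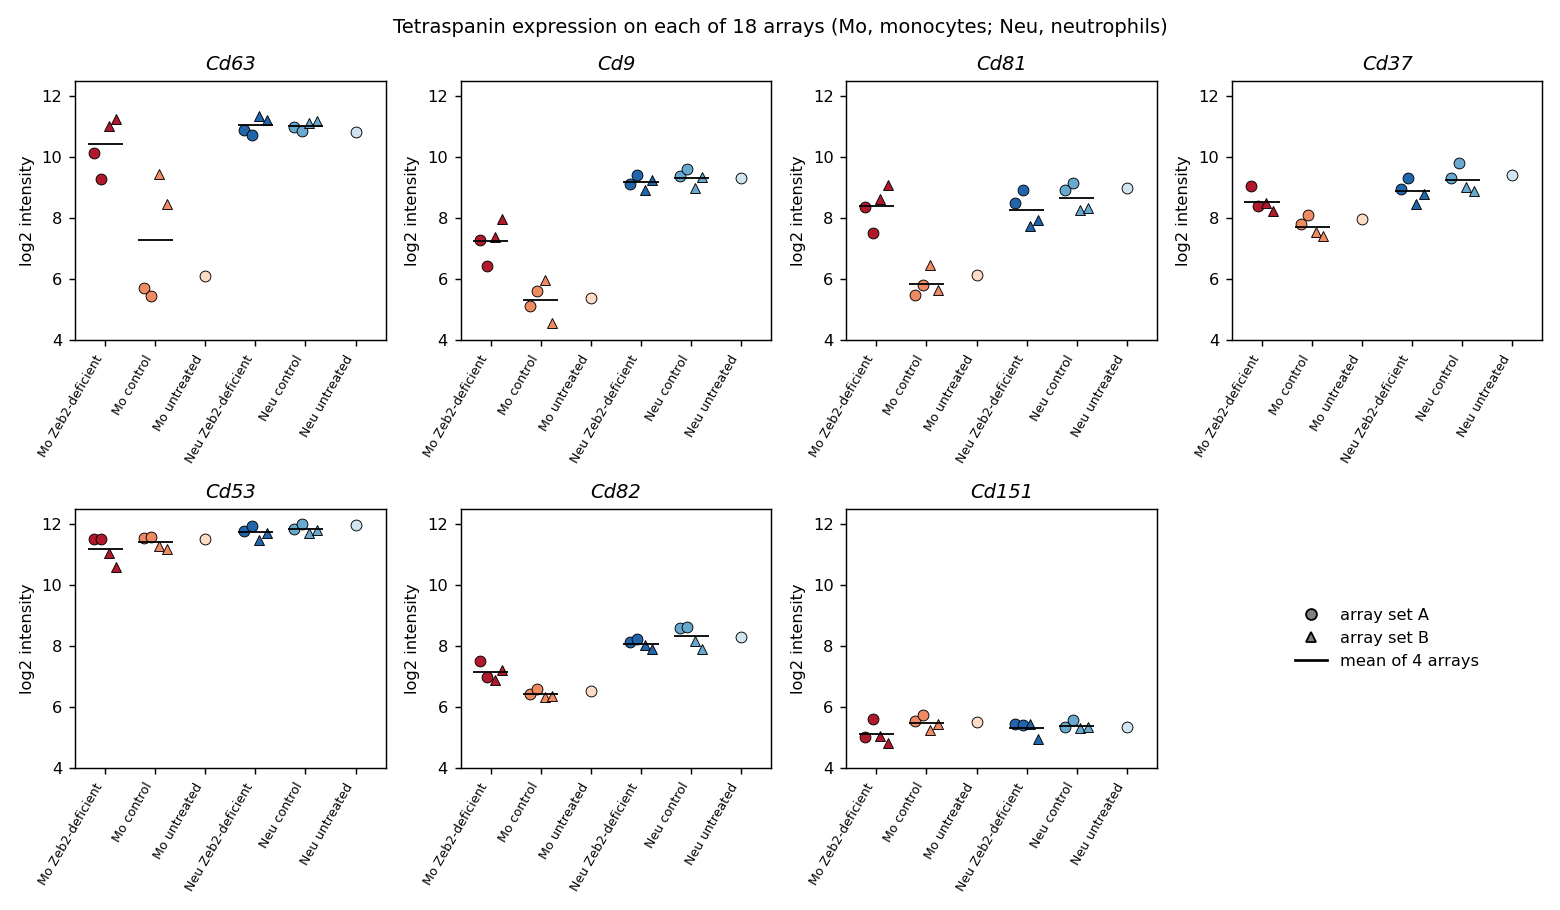
Log2 intensity of each tetraspanin (y axis) on each of the 18 arrays, by cell type and group (x axis), with circles for array set A, triangles for array set B and a line at the mean of 4 arrays. Cd81, Cd9, Cd37 and Cd82 lie higher in monocytes labelled Zeb2-deficient than in control monocytes with no overlap, and the control monocytes of Cd63 split by array set, at 8.97 in set B and 5.58 in set A.

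In neutrophils the same comparison gave small differences. Cd63 read 10.90, 10.72, 11.37 and 11.23 in neutrophils labelled deficient, against 10.99, 10.85, 11.13 and 11.18 in control neutrophils. The groups overlapped fully, and the difference was 0.016 (95% interval -1.35 to 1.38). Cd9 averaged 9.19 ± 0.21 and 9.33 ± 0.25 (SD, n = 4 each) in the deficient and control groups, with a difference of -0.15 (95% interval -0.75 to 0.45). Cd81 averaged 8.28 ± 0.53 and 8.68 ± 0.44 (SD, n = 4 each), and its interval ran from -1.06 to 0.27.

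The other members lay between -0.38 for Cd37 and -0.066 for Cd151. Of the 7, 6 lay below 0, but 0 of 7 passed in limma, every adjusted p was 0.999, and no unadjusted p was under 0.05 (the lowest was 0.106, Cd37). The median change of all genes tested was -0.0099, and how many of them lay below 0 was not counted. Across all genes tested 0.120% passed. Arrays did not overlap for 0 of 7, where 3.43% of all genes did not. For Cd63, Cd9 and Cd81 these intervals end below the difference estimated in monocytes.

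The difference between the monocyte and the neutrophil change was tested as an interaction term. It passed for 4 of 7 members, all with the more positive change in monocytes, where 2.17% of all genes passed in that direction. It was 2.94 ± 0.45 (SE) for Cd81 (limma adjusted p = 0.00135) and 2.10 ± 0.40 (SE) for Cd9 (0.00674). It was smaller for Cd37, at 1.21 ± 0.31 (SE, 0.0472), and for Cd82, at 0.96 ± 0.23 (SE, 0.0278). Cd63 had the largest difference, 3.14 ± 0.92 (SE), but adjusted p was 0.0837. With the replicate number as a block adjusted p was 0.0244, and with the array set as a block 0.00800. It was 0.0237 without deficient monocyte replicate 2 and 0.00800 without control monocyte replicate 4. In 14 of the 16 cases that leave out 1 array Cd63 still did not pass, at limma adjusted p up to 0.177. Nor did it pass in 7 of 12 other settings, at adjusted p up to 0.114. Cd53 (-0.12) and Cd151 (-0.30) did not pass.

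The calls for Cd37 and Cd82 in this test were lost in 10 and 9 of the 16 cases that leave out 1 array, at adjusted p up to 0.106 for Cd37 and 0.0715 for Cd82. For Cd37 the arrays were control monocyte replicates 1, 4 and 5, deficient monocyte replicates 1 and 3, control neutrophil replicates 1 and 2, and deficient neutrophil replicates 1, 3 and 4. For Cd82 they were control monocyte replicates 1, 4 and 5, deficient monocyte replicates 1 and 4, control neutrophil replicates 1 and 2, and deficient neutrophil replicates 3 and 4.

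**Figure D2:**
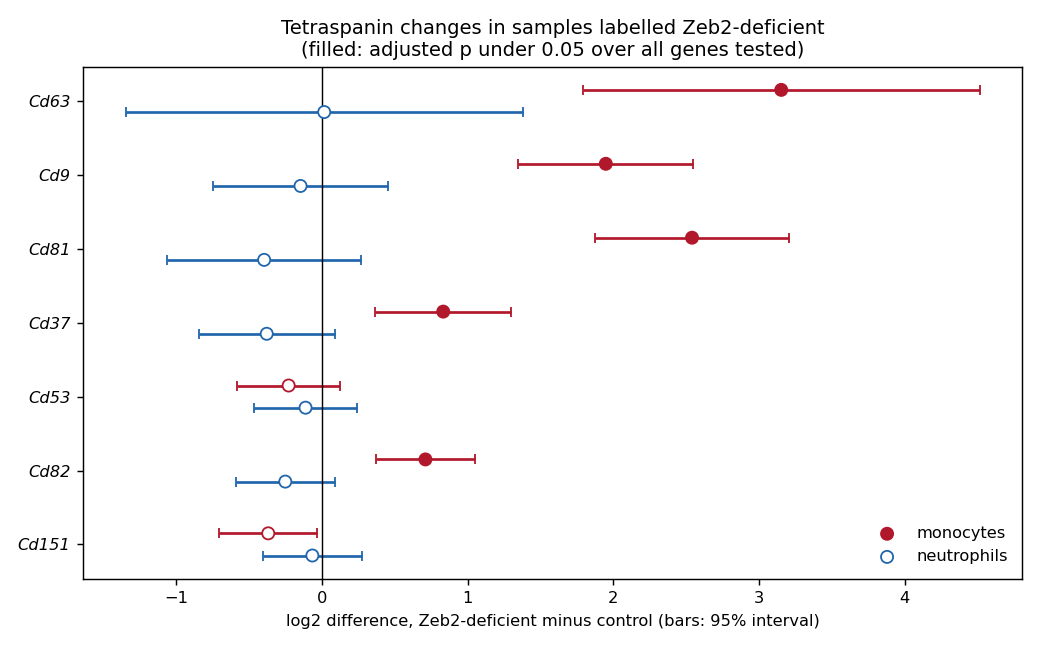
Log2 difference of Zeb2-deficient minus control (x axis) for each tetraspanin (y axis), with bars for the 95% interval and filled points where adjusted p is under 0.05. In monocytes Cd63, Cd81, Cd9, Cd37 and Cd82 lie at 3.15, 2.54, 1.95, 0.83 and 0.71, and in neutrophils no interval excludes 0.

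Most members were lower in monocytes than in neutrophils among the controls. In control monocytes 6 of 7 members passed as lower than in control neutrophils, where 28.7% of all genes were lower. Arrays did not overlap for 6 of 7 members, where 56.2% of all genes did not. Cd9 averaged 5.32 ± 0.62 in control monocytes and 9.33 ± 0.25 in control neutrophils (SD, n = 4 each), 16.1-fold lower in monocytes (-4.01 ± 0.29 SE, limma adjusted p = 1.46e-09). Cd63 was 13.6-fold lower (-3.76, 7.64e-05) and Cd81 7.07-fold lower (-2.82, 4.81e-07). Cd82 (-1.90) and Cd37 (-1.54) followed. Cd53 was lower by 0.44 on the log2 scale (adjusted p = 0.0312). That call was lost in 5 of 8 cases that leave out 1 array, at adjusted p of 0.0778 and 0.0900 without control monocyte replicates 4 and 5, and 0.0533, 0.0842 and 0.0511 without control neutrophil replicates 1, 2 and 5. Cd151 differed by 0.11 and did not pass. Of 6 platelet and megakaryocyte markers tested, 3 were lower in control monocytes and 0 higher (median -0.57), where 28.7% of all genes were lower. Their part in the gap of Cd9 was not tested.

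Among samples labelled deficient the same gaps lay nearer 0 for 5 members, of which 4 passed the interaction test and Cd63 did not. They read -0.63 for Cd63, -1.91 for Cd9, 0.12 for Cd81, -0.33 for Cd37 and -0.94 for Cd82, and of these only Cd9 (adjusted p = 1.75e-05) and Cd82 (8.57e-05) passed. With Cd53 (-0.56, 0.00837), 3 of 7 members were lower in monocytes, where 32.1% of all genes were. The change in the gap is the interaction term above and uses the same arrays. For Cd81 the gap ran opposite ways in the array sets, -0.76 in set A (adjusted p = 0.0314) and 0.995 in set B (0.00513), and it was -0.11 without deficient monocyte replicate 4 and -0.063 without deficient neutrophil replicate 3.

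The order of the 4 group means differed among the members. For Cd9 and Cd82 control neutrophils stood highest, then neutrophils labelled deficient, monocytes labelled deficient and control monocytes, and only the 2 neutrophil groups overlapped. For Cd37 the order was the same, and each group overlapped the next except the 2 monocyte groups. For Cd63 all neighbours in the order overlapped. Cd81 in monocytes labelled deficient (8.40) lay between neutrophils labelled deficient (8.28) and control neutrophils (8.68), overlapping both. For Cd53 and Cd151 every neighbouring pair overlapped.

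The arrays fall into 2 sets by their place in the labels' list, set A with controls 1 and 2 and deficient 1 and 2, and set B with controls 4 and 5 and deficient 3 and 4. The labels name no batch. The sets are used because arrays of different groups in the same set shared deviations from their group means. Cd63 was higher in set B in 4 of 4 groups, by 3.39 in control monocytes (8.97 in set B and 5.58 in set A), 1.42 in monocytes labelled deficient, 0.49 in neutrophils labelled deficient and 0.23 in control neutrophils. Its rise in monocytes was 4.14 within set A (limma adjusted p = 1.97e-06) and 2.17 within set B (1.10e-04). Cd37, Cd53, Cd82 and Cd151 were lower in set B in 4 of 4 groups. How many of all genes tested kept the same direction in 4 of 4 groups was not counted.

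The split of Cd63 among control monocytes was set beside granule genes. Elane, the neutrophil elastase of primary granules, read 9.78 and 8.96 in set B and 7.08 and 6.64 in set A of control monocytes. Mpo, the myeloperoxidase of the same granules, read 10.66 and 9.72 in set B and 8.0 and 7.42 in set A. The primary granule list holds 11 genes, Mpo, Elane, Prtn3, Ctsg, Prss57, Ms4a3, Nkg7, Fcnb, Cebpe, Gfi1 and Myb. Not all of them encode granule contents. All 11 were higher in set B, by a median of 1.18. The neutrophil markers were higher in set B for 13 of 16, by a median of 0.71, while Ly6g, the surface marker that defines neutrophils, read 4.48 and 3.95 in set B and 3.59 and 3.59 in set A, at or below the array's 40th percentile on 3 of 4 control arrays. The share of all genes tested that were higher in set B was not computed, so these counts have no background beside them. The part of these genes in the level of Cd63 was not tested.

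**Figure D3:**
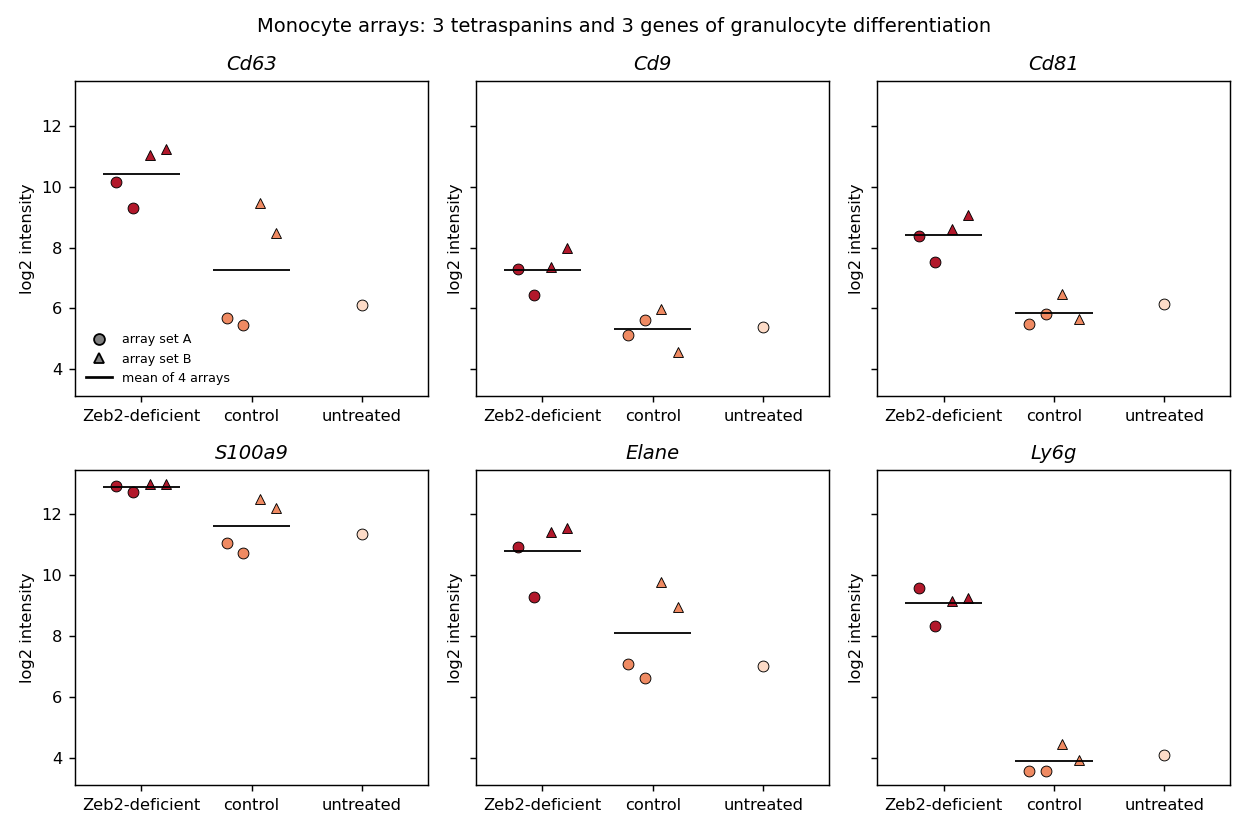
Log2 intensity (y axis) of Cd63, Cd9 and Cd81 and of S100a9, Elane and Ly6g on the 9 monocyte arrays by group (x axis), with circles for set A, triangles for set B and a line at the mean of 4 arrays. Cd63, S100a9 and Elane split by set among control monocytes, and Ly6g reads 8.35 to 9.59 in monocytes labelled Zeb2-deficient, against 3.59 to 4.48 in control monocytes.

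Genes of other cell types moved beside the tetraspanins in monocytes. Of 16 neutrophil markers, 14 rose and 0 fell in monocytes labelled deficient, where 5.11% of all genes tested rose and 2.44% fell. Their median change was 2.71, where the median of all genes tested was -0.034. Their mean level per array was 9.38 to 10.2 in monocytes labelled deficient, 6.78 to 7.90 in control monocytes and 11.7 to 11.8 in all poly(I:C) neutrophils. Ly6g averaged 9.08 and 3.90 in the deficient and control monocytes, and the chemokine receptor Cxcr2 8.45 and 4.78. Mmp8, the next marker listed, differed less. It read 9.92 to 11.38 in the deficient and 9.73 to 10.01 in the control monocytes, and these groups overlapped. All 11 genes of the primary granule list rose (median 2.64), at a mean level per array of 7.93 to 9.98 in monocytes labelled deficient and 5.90 to 7.69 in control monocytes. In neutrophils the mean level of those genes per array was 5.61 to 6.59 in the deficient and 5.62 to 5.75 in the control group.

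Ly-6C(hi) monocyte markers went the other way. Of 12 tested, 4 fell and 0 rose (median -0.76), and their mean level per array was 8.84 to 9.68 in monocytes labelled deficient and 9.77 to 9.94 in control monocytes. Among all genes tested in monocytes 5.11% rose and 2.44% fell, and a count of 0 or 1 in a short list is near these shares. Cell cycle genes rose for 8 of 19 (median 0.62). Mast cell and basophil markers rose for 2 of 5, at a mean level of 3.95 to 4.89 in monocytes labelled deficient and 3.75 to 4.08 in control monocytes. Of the B cell markers and of the T and NK cell markers, 6 each were tested and 0 passed. Eosinophil markers rose for 1 of 4 and erythroid markers for 1 of 5. Dendritic cell markers rose for 1 and fell for 3 of 9, macrophage markers rose for 1 and fell for 2 of 8, and stem and progenitor markers rose for 2 and fell for 1 of 10. The part of any of these in the tetraspanin changes was not tested, and in neutrophils 0 genes of all 17 lists passed in limma, where 0.120% of all genes did, so a count of 0 is near the background.

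Most of the rest of the family did not pass. Of 24 other tetraspanin genes listed, 23 had a probe set and 15 were tested. In monocytes labelled deficient 2 rose and 0 fell, where 5.11% of all genes tested rose. Below 0 lay 13 of 15, with a median of -0.16, where the median of all genes tested was -0.034. How many of all genes tested lay below 0 was not counted. Tspan2, known from myelin-forming cells of the brain, read 6.39, 5.10, 6.82 and 7.02 in monocytes labelled deficient, against 4.37, 4.28, 4.61 and 4.49 in control monocytes. The groups did not overlap, and it rose by 1.90 (limma adjusted p = 3.22e-04) to a mean of 6.33, against 6.33 in control neutrophils. Tspan32, a tetraspanin of blood cells, averaged 7.08 in monocytes labelled deficient and 6.35 in control monocytes, and it rose by 0.74 (adjusted p = 0.00279). Both also passed the interaction test, at 1.91 and 1.07.

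Between the control cell types 3 of the 15 were higher in monocytes and 4 lower, where 29.9% of all genes tested were higher and 28.7% lower. Tspan31 was the most different, at 7.95 in control monocytes and 4.85 in control neutrophils (difference 3.10, limma adjusted p = 1.17e-11). Tspan3 and Tspan17, which belongs to the tetraspanins that regulate the protease ADAM10, were also higher in monocytes, by 0.93 and 0.70. Tspan2 (-1.89), Tspan13 (-1.50), Tspan32 (-0.97) and Tspan10 (-0.37) were lower. Tspan31 and Tspan13 differed between the cell types, while their genotype differences in monocytes of -0.20 and -0.23 did not pass (adjusted p = 0.528 and 0.568).

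**Figure D4:**
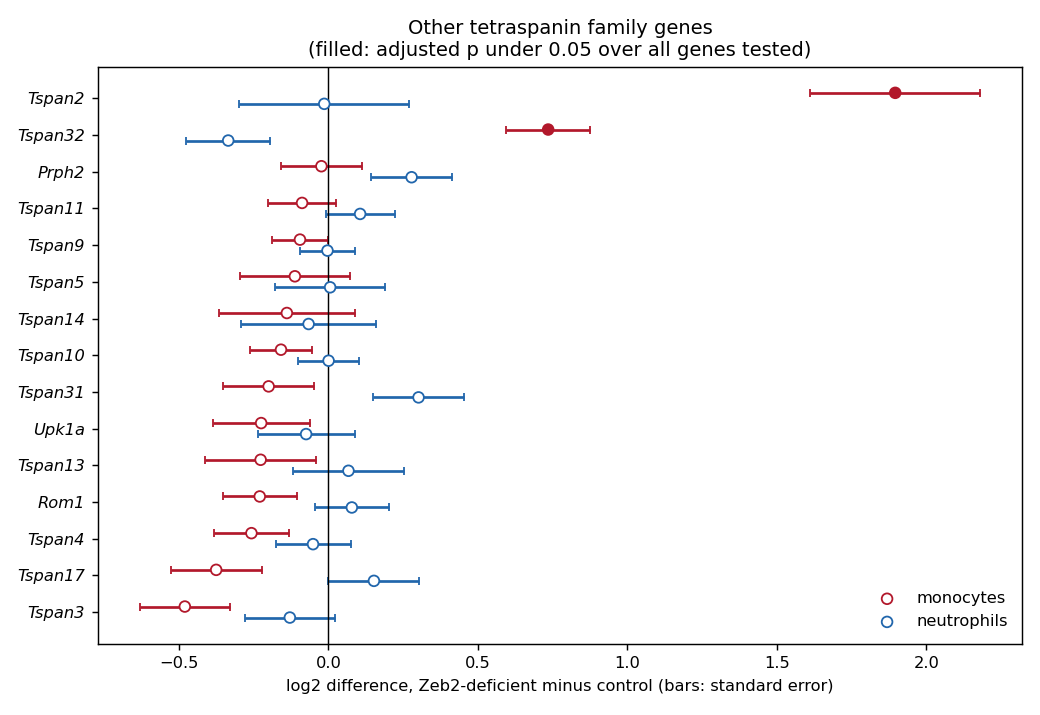
Log2 difference of Zeb2-deficient minus control (x axis) for the 15 other tetraspanin genes tested (y axis), in monocytes and neutrophils, with bars for the standard error and filled points where adjusted p is under 0.05. Tspan2 and Tspan32 are the only filled points, at 1.90 and 0.74 in monocytes.

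Genes for proteins that bind tetraspanins were also listed. Of 22 partner genes tested, 3 rose and 2 fell in monocytes labelled deficient, with a median of -0.13, where 5.11% of all genes tested rose and 2.44% fell. Ifitm1, an interferon-induced membrane protein, averaged 9.63 and 7.87 in the deficient and control monocytes (difference 1.76, limma adjusted p = 4.43e-04), against 11.4 in control neutrophils. Itga6, the alpha-6 chain of laminin-binding integrins, rose by 1.15 (5.21e-04), and Cd5, a lymphocyte receptor, by 0.54 (0.0275). Clec7a, which encodes Dectin-1, the partner of CD37, fell by 0.84 (0.00318) while Cd37 rose. Tgfbr2, a receptor for TGF-beta, fell by 0.52 (0.0122). Between the control cell types 4 partners were higher in monocytes and 10 lower, beside 29.9% and 28.7% of all genes, led by Ifitm1 (-3.52), the integrin chains Itgam (-1.37) and Itgb1 (2.33), and Ifitm6 (-1.16).

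Genes of the compartments that hold CD63 were set beside it. Of 16 genes for lysosome and granule membrane proteins, 1 rose and 0 fell in monocytes labelled deficient (median -0.14), a share near the 5.11% higher and 2.44% lower among all genes tested. It was Rab27a, a GTPase that docks granules at the cell surface, at 9.06 and 8.40 in the deficient and control monocytes (0.66, limma adjusted p = 0.00337). The lysosomal membrane glycoprotein Lamp1, by contrast, was 10.50 and 10.73 (difference -0.23, adjusted p = 0.585). Of 18 genes for endosomal sorting and vesicle release, 0 passed in limma in monocytes (median -0.0040).

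Between the control cell types 6 of the 16 lysosome and granule membrane genes were higher in monocytes and 2 lower, beside the same shares of all genes. The leading 4 were Cd68 (2.00), Cd164 (-1.25), Tmem192 (2.31) and Rab27a (-1.16). Of the 18 sorting genes, 1 was higher and 5 lower, among them Rab11a, a GTPase of recycling endosomes (-0.92). No gene of that list differed by as much as Cd63, Cd9 or Cd81.

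Across the 18 arrays most pairs among Cd63, Cd9, Cd81, Cd37 and Cd82 were closely correlated, Cd53 was intermediate and Cd151 was apart from most. The arrays share 2 cell types and the genotype contrast, so these coefficients describe the pattern only. Cd9 and Cd82 were the closest pair (Pearson r = 0.952), then Cd37 and Cd82 (0.925) and Cd9 and Cd81 (0.884). The lowest of the 5 among themselves was Cd63 with Cd37 (0.620). Cd53 had r = 0.671 with Cd37, 0.637 with Cd82, 0.499 with Cd9, 0.228 with Cd81 and 0.090 with Cd63. Cd151 had 0.481 with Cd53 and -0.55 with Cd63.

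Of all genes tested, those most like Cd63 over the 18 arrays were S100a9 (r = 0.985), Camp (0.984) and S100a8 (0.983). For Cd9 they were Slc40a1 (0.990), Itgb2l (0.989) and Gbe1 (0.989), and for Cd81 Lbp (0.979), Serpinb1a (0.976) and Scnn1a (0.976). Those most like Cd82 were Rab3d (0.985), Stap1 (0.985) and Clec5a (0.983), and those most like Cd37 were Ppm1m (0.961), Cnn2 (0.960) and Arfgef1 (0.958). Cd53 was closest to Ep300 (0.980), Nfam1 (0.977) and Myo1f (0.973), and Cd151 to Dram2 (0.874), Gm16982 (0.845) and Stambpl1 (0.844).

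The profile of S100a9, which encodes a calcium-binding protein abundant in neutrophils, shows what such likeness looks like. It averaged 12.92 in monocytes labelled deficient, 11.63 in control monocytes, 13.02 in neutrophils labelled deficient and 13.05 in control neutrophils, and its control monocytes split by set as those of Cd63 did, at 12.52 and 12.19 in set B and 11.07 and 10.72 in set A. Slc40a1, the gene most like Cd9, averaged 5.70 and 3.43 in the deficient and control monocytes and 8.19 and 8.30 in the deficient and control neutrophils. On every control monocyte array it read at or below the array's 40th percentile, so its low level there is near the floor.

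The untreated controls, 1 array per cell type, allow no test of poly(I:C). Their values lay inside the range of the poly(I:C) controls for 13 of 14 pairs of member and cell type. The exception was Cd63 in neutrophils, whose lowest poly(I:C) control value was 10.85, against 10.83 untreated. In monocytes the poly(I:C) controls averaged 7.27 for Cd63 against 6.10 untreated, a distance within the spread of the controls, and the untreated array lay nearer the control arrays of set A, to which it belongs.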

How the data were processed

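Expression was measured on 18 Affymetrix Mouse Gene 1.0 ST arrays, as the probe annotation's header states. The authors deposited log2 intensities, 1 per probe set, made with RMA per the submitters' processing notes. Neither its software and version nor its background step is given in the sources used here. From them, probe sets with 1 gene symbol were kept, 1 per gene with the highest mean, and genes above the array's 40th percentile on at least 4 arrays were tested. The comparisons used limma 3.58.1 (R 4.3.3) with 1 mean per group, fitted to all 18 arrays together (12 residual degrees of freedom, variance trend, two-sided, Benjamini-Hochberg at 0.05 over all genes tested). The untreated arrays entered no contrast. The procedure was checked on simulated data drawn with independent noise for each gene and array. That check does not cover deviations that arrays of a set share. Figures were drawn with matplotlib 3.10.9. Array numbers came from the titles. Deviations from the group means of same-numbered deficient and control arrays correlated at 0.183 to 0.428 in 6 of 6 pairs within a cell type, so the number was fitted as a block as an alternative. Other pairs of the same set gave 0.127 to 0.348. The 7 members and the 17 gene lists were chosen with earlier results of these data known. Named genes are the members, the 3 most correlated with each, and up to 4 called genes of each list by smallest adjusted p, with the first-listed cell markers. Lamp1, Cd5, Tspan3, Tspan10 and Tspan17 were added after their values were seen. Alternatives changed the normalization, filter, probe choice, arrays fitted, variance trend, weights and blocks.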

Additional observations from a re-analysis of the deposited data

Results flagged for a closer look

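Of 28 sets of 4 arrays examined (7 members in 4 groups), 1 held an array far from the other 3, where chance gives about 1 in 20. It was Cd151 in neutrophils labelled Zeb2-deficient, where replicate 4 read 4.94 and the distance to its nearest neighbour was 0.937 of the range.

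The genotype change differed between the cell types for 4 members, tested as an interaction term. The difference, monocytes minus neutrophils, was 2.94 for Cd81, 2.10 for Cd9, 1.21 for Cd37 and 0.96 for Cd82. Cd9 did not pass within array set A alone (adjusted p = 0.0858), nor Cd82 within set A (0.0905) or set B (0.0870), nor Cd37 within set A (0.205).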

How the results depend on the processing

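In monocytes 1010 genes passed; 500 did with only the arrays compared, 1613 with array weights, 1516 with the array set as a block, 215 and 1724 within sets A and B, and 620 to 2001 when 1 array was left out (2001 without deficient replicate 2, 621 and 620 without deficient replicates 3 and 4). In neutrophils 16 passed, 9 with only the arrays compared, 3 within set A, and 8 to 17 when 1 array was left out (8 without deficient replicate 1, 9 without control replicate 4). The interaction passed for 359 genes, 650 with weights, 567 with the set block, 72 and 731 within sets A and B, and 245 to 904 when 1 array was left out (904 without deficient monocyte replicate 2). Of the members, 3 instead of 5 passed in monocytes within set A (Cd37 at 0.170 and Cd82 at 0.0758 did not), 2 instead of 4 in the interaction within set A, and 5 instead of 3 between the deficient cell types within set A. The 2 in the interaction were Cd81 and Cd63, which did not pass in the main fit. Cd63 passed it within set A and within set B (limma adjusted p = 5.65e-05 and 0.00390). Leaving out 1 array gave 4 to 6 members in monocytes, 0 to 0 in neutrophils, 2 to 5 in the interaction, 5 to 6 between control cell types and 3 to 4 between deficient ones. With the replicate number as a fixed block, which joins arrays of both genotypes, the interaction of Cd63 passed (limma adjusted p = 0.0244). A random block of the number within genotype, which joins only the 2 cell types, gave 0.0496. Neither block changed another call of a member. Without a filter on dim probe sets the interaction of Cd37 had adjusted p = 0.0572. Signs turned only for values that did not pass in the main fit: Cd63 in neutrophils (-0.00699 with weights, -0.11 in set A, -0.090 to 0.13 when 1 array was left out), Cd151 in neutrophils (-0.11 to 0.062), the interaction of Cd53 (0.023 in set A, -0.23 to 0.079), Cd151 between control cell types (-0.031 after quantile normalization) and Cd81 between deficient cell types (-0.76 in set A, -0.11 to 0.41). Of these, the reversed value of Cd81 in set A did pass (limma adjusted p = 0.0314). Of 756 member values recomputed, 695 kept direction and side of the threshold. The cause of these shifts was not tested. Fits within a set have fewer arrays. Both the brightness of dim probe sets, such as Cd9 and Cd151 in control monocytes, and the number of arrays limit what could be detected.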
